A study of Mus musculus with 16 samples.

Results

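A set of 10 skeletal muscle fiber genes, Myh4, Myh1, Acta1, Tnni2, Tnnc2, Actn3, Casq1, Pvalb, Mb and Ckm, was followed across 16 bulk RNA libraries of MC38 tumors. They are 10 of the 53465 genes in the deposited table, were matched to it by symbol, and all 10 were among the 18251 genes that passed the filter on low counts. The genes were selected on measured values, since single tumors had been seen to carry muscle RNA in these same counts, so their levels are a description of these tumors, given with no test of the difference between them.

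MC38 is a mouse colon adenocarcinoma line. A total of 1000000 cells was placed under the skin of the right flank of female C57BL/6 mice aged 6 to 8 weeks, and tumors of 150 to 250 mm3 at day 16 were enrolled. Mice received 200 µg of control IgG or of an antibody to the checkpoint receptor PD-1 (aPD-1) on days 16 and 20, and tumors were taken at day 21, 5 days after the first dose. RNA came from 2 sections of 100 µm of a frozen block of each tumor, and each tumor came from another mouse. The 8 control tumors are called IgG 1 to 8. The study split the 8 treated tumors by CD8 staining into 6 non-responders, NR 9 to 14, and 2 responders, R 15 and 16. All 16 tumors share the cell line, the site, the strain and the schedule, so every contrast is between antibodies or between response classes in 1 model, and with 2 responders the spread of that group rests on 1 pair of tumors.

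Skeletal muscle fibers contract when myosin thick filaments pull on actin thin filaments inside the sarcomere, under the control of calcium released from the sarcoplasmic reticulum. Fast fibers use their own forms of the myosin heavy chain, of the troponins and of alpha-actinin, and hold parvalbumin and calsequestrin for rapid calcium cycling. In the mouse, a sheet of striated muscle, the panniculus carnosus, lies below the skin, and the body wall beneath it holds further muscle.

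The total count per tumor ran from 26603449 to 39948866 (median 34105782). Cd8a, which bears on the response labels, stood at 59.7 and 59.2 CPM (counts per 1000000 counts of the library, scaled by TMM) in R 15 and R 16 and between 1.94 and 11.5 CPM in the other 14 tumors. The gut markers Cdx2 and Vil1 stayed at or below 0.0259 and 0.283 CPM in all 16 tumors, so the labelled colorectal origin was not visible in them. Summed over 7 genes, the intestinal epithelium list stood at 116 and 50.5 CPM in the responders and at 4.61 to 12.2 CPM elsewhere. R 15 and R 16 also stood apart in fat cell genes, at 2017 and 320 CPM against at most 103.7 CPM, and in B cell genes, at 749 and 195 CPM against at most 3.90 CPM. IgG 6 stood apart in muscle genes, and each result that rests on it is given with and without it.

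Promoter sequences of 4 of the genes are shown because Myh4, Acta1, Ckm and Myh1 had the highest counts of the 10 in the tumor that the results turn on. Each is the 250 bases before the transcription start given by RefSeq, on build GRCm38.p6, written 5′ to 3′ on the strand of the gene, and capitals mark matches to 5 motifs known from muscle promoters. The windows lie at chr11:67237562-67237811 (plus strand) for Myh4, chr11:67199852-67200101 (plus strand) for Myh1, chr8:123894776-123895025 (minus strand) for Acta1 and chr7:19410844-19411093 (plus strand) for Ckm.
Myh4: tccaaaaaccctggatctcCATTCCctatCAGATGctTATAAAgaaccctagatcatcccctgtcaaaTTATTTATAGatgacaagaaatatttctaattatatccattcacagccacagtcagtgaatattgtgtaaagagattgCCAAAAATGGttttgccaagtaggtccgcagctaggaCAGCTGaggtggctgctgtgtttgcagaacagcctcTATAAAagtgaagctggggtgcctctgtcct
Myh1: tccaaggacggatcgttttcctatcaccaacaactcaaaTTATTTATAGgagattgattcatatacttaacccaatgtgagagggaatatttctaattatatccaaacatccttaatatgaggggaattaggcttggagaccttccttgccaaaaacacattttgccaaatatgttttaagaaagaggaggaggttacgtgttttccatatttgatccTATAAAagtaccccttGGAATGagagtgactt
Acta1: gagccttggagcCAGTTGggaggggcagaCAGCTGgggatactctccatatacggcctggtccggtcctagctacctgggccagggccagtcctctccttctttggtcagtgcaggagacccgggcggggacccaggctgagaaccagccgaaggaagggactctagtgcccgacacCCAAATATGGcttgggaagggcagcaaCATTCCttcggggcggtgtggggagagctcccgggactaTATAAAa
Ckm: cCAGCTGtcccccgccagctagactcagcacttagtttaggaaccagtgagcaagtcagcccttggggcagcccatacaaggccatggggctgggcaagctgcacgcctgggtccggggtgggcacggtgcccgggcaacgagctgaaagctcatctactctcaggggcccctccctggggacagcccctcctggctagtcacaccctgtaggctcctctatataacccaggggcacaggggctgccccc

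The motifs searched were the TATA box TATAAA as written, the E-box CANNTG as written, which reads the same class of site on both strands and is bound by myogenic basic helix-loop-helix factors, the M-CAT element CATTCC on both strands, the MEF2 site on both strands and the CArG box on both strands. Windows were found for 8 of the 10 genes, 11 windows in all, with Tnni2 and Actn3 not matched. TATAAA lay in the windows of Myh1, Myh4 and Acta1, against 7.59% of the 32851 promoter windows of the genome. The MEF2 site lay in those of Myh1, Myh4 and Pvalb, against 2.92% of all windows. The CArG box lay in Myh4 and Acta1, against 1.47%. CATTCC lay in Myh1, Myh4 and Acta1, against 12.6%, and CANNTG lay in 7 of the 8 genes, all but Myh1, against 66.2%. The Ckm window held an E-box as its only match. A match is a description of the letters and was not tested as a binding site. The Myh4 and Myh1 windows, of neighbouring genes on chromosome 11, shared a run of 20 bases, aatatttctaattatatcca, that began 163 bases before the start of Myh4 and 165 bases before that of Myh1. They also shared a run of 15 bases, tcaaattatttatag, which holds the MEF2 match, 187 and 216 bases before the start. The windows differed in base composition, with 42.0% G or C in Myh4, 36.0% in Myh1, 61.2% in Acta1 and 64.8% in Ckm, around a median of 52.4% over all windows.

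Summed over the 10 genes, the level stood far above the rest in 1 tumor. IgG 6 held 2042 CPM of it, from 78745 counts, which is 0.207% of its total count (95% Wilson interval 0.206% to 0.209%). The next tumor, NR 12, held 75.6 CPM, so IgG 6 was 27.01 times above the second tumor and 133 times above the median tumor at 15.3 CPM. NR 13 followed with 41.0 CPM and NR 10 with 39.0 CPM, and the exact 95% Poisson intervals of this pair overlapped. Such intervals cover counting error only. Below them, IgG 5 at 23.1 CPM and IgG 7 at 20.8 CPM overlapped, as did R 16 at 17.8 CPM and IgG 2 at 16.9 CPM. IgG 4 and NR 9 stood at 13.7 and 13.6 CPM. IgG 3 at 10.6 CPM, IgG 8 at 8.67 CPM and NR 11 at 8.32 CPM formed a run of overlapping neighbours. NR 14 at 6.40 CPM, R 15 at 5.79 CPM and IgG 1 at 4.79 CPM were the lowest, again with neighbours that overlapped. In bulk RNA, more muscle fiber in a section and more RNA per fiber cannot be told apart.

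**Figure D1:**
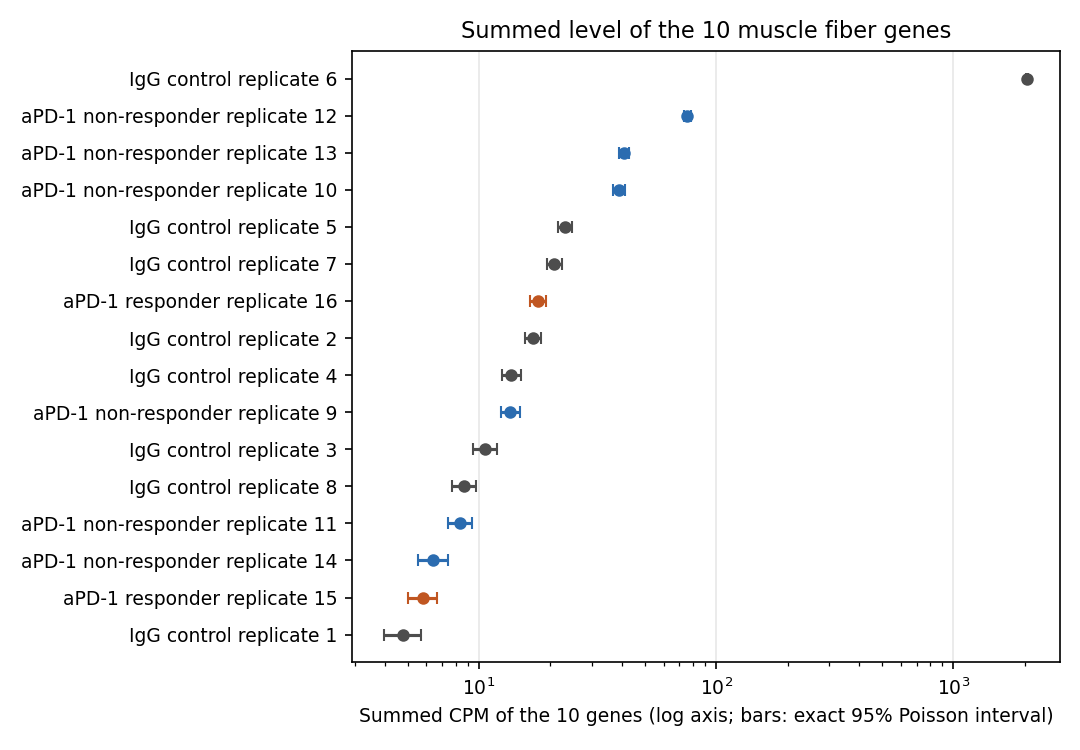
Summed level of the 10 muscle fiber genes in each tumor, in TMM-scaled CPM on a log axis, with exact 95% Poisson intervals and color by group (grey IgG control, blue aPD-1 non-responder, orange aPD-1 responder). IgG control replicate 6 stands at 2042 CPM, and the other 15 tumors lie between 4.79 and 75.6 CPM with the 3 groups intermixed.

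By group, the sum was 268 ± 717 CPM in the IgG tumors (SD, n = 8), 30.6 ± 26.7 CPM in the non-responders (n = 6) and 11.8 ± 8.47 CPM in the responders (n = 2). Without IgG 6, the IgG mean was 14.1 ± 6.62 CPM (n = 7), with a range of 4.79 to 23.1 CPM. The 3 ranges overlapped, with non-responders from 6.40 to 75.6 CPM around a median of 26.3 CPM and the 2 responders at 5.79 and 17.8 CPM. A group mean with IgG 6 in it thus gives the level of that 1 tumor more than that of its group.

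The thick filament was represented by 2 fast myosin heavy chains, Myh4 of the fastest fibers (type IIb) and Myh1 of type IIx fibers. Myh4 (ENSMUSG00000057003, chr11:67238029-67260446, plus strand) had the most counts of the 10 genes in IgG 6, at 554 CPM. Positions of genes are on GRCm38. Myh4 ran from 0 in IgG 1 through a median of 1.80 CPM in the IgG group, from 0.136 through 2.89 to 11.1 CPM in the non-responders, and stood at 0.0887 and 3.35 CPM in R 15 and R 16. All other tumors therefore lay within the IgG range, while without IgG 6 the IgG tumors ended at 3.36 CPM, below NR 12 and NR 10. The count of 0 in IgG 1 allows up to 0.114 CPM (3 counts).

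Myh1 (ENSMUSG00000056328, chr11:67200052-67224575, plus strand) reached 179 CPM in IgG 6, above a lowest IgG value of 0.798 CPM and an IgG median of 2.21 CPM. In the non-responders it ran from 0.677 through 4.802 to 11.3 CPM, and it was 1.06 and 1.55 CPM in the responders. NR 10, NR 12 and NR 13, at 8.51, 11.3 and 8.66 CPM, lay above the 7 other IgG tumors, which ended at 5.22 CPM, whereas both responders lay inside that range.

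In the thin filament, Acta1 encodes the actin of adult skeletal muscle, Tnni2 the fast inhibitory troponin I, and Tnnc2 the fast calcium-binding troponin C. Acta1 (ENSMUSG00000031972, chr8:123891769-123894751, minus strand) was 334 CPM in IgG 6, with an IgG low of 0.114 CPM and median of 2.36 CPM. The non-responders ran from 0.440 through 4.58 to 16.6 CPM and the responders stood at 0.443 and 1.69 CPM. Again NR 10, NR 12 and NR 13 (7.96, 16.6 and 12.1 CPM) were above the other 7 IgG tumors, which ended at 4.90 CPM.

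Tnni2 (ENSMUSG00000031097, chr7:142441808-142444410, plus strand) differed from the other 9 in its lower end, since no tumor had less than 2.51 CPM. IgG tumors ran from 2.64 through 3.43 to 109.7 CPM, the last in IgG 6. Non-responders ran from 2.51 through 4.92 to 8.07 CPM, and responders stood at 2.78 and 5.51 CPM. Outside IgG 6, Tnni2 thus varied over a narrow range in which each library held at least 87 counts. IgG 6 was 13.6 times above NR 12 for Tnni2, the smallest such ratio of the 10 genes.

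Tnnc2 (ENSMUSG00000017300, chr2:164777161-164779967, minus strand) was 143 CPM in IgG 6 and 0.114 CPM in the lowest IgG tumor, with an IgG median of 1.04 CPM. It ran from 0.203 through 1.87 to 7.90 CPM in the non-responders and was 0.0887 and 1.07 CPM in the responders. NR 10, NR 12 and NR 13 once more lay above the other 7 IgG tumors, which ended at 1.63 CPM. Of the exon bases of Tnnc2, 592 of 800 (74.0%) lie opposite exons of Ube2c, a gene of the cell division machinery found at 79.2 to 211 CPM in all 16 tumors. The libraries keep strand, the strand setting of the counting is not given in the sources used here, and Tnnc2 stood below 0.12 CPM in IgG 1 and R 15 with Ube2c at 211 and 79.2 CPM.

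**Figure D2:**
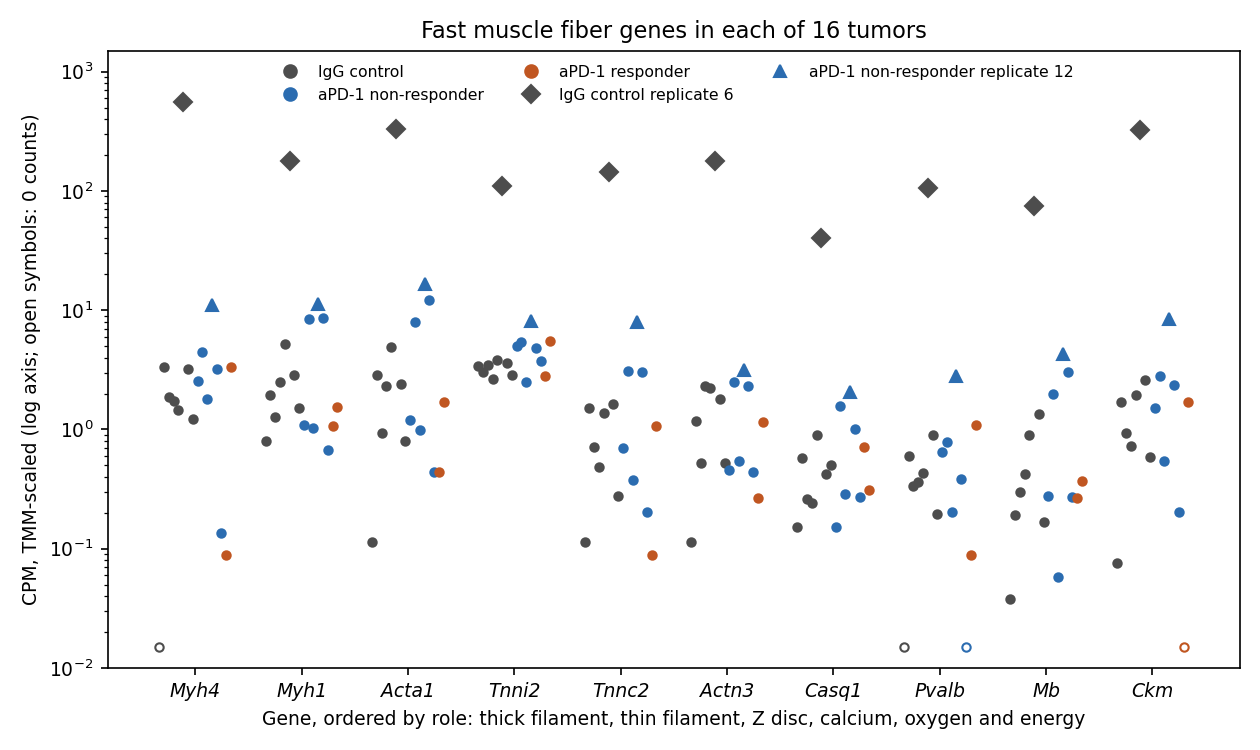
Level of each of the 10 genes in each of the 16 tumors, in TMM-scaled CPM on a log axis, with 1 point per tumor colored by group, a diamond for IgG control replicate 6, a triangle for aPD-1 non-responder replicate 12 and open symbols for counts of 0. The diamond is the highest point for all 10 genes, at 39.96 to 554 CPM, and the triangle is the second highest for all 10, at 2.05 to 16.6 CPM.

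At the Z disc, which anchors the thin filaments, Actn3 encodes the alpha-actinin of fast fibers. Actn3 (ENSMUSG00000006457, chr19:4861216-4877909, minus strand) was 177 CPM in IgG 6, against an IgG low of 0.114 CPM and median of 1.49 CPM. Non-responders ran from 0.440 through 1.43 to 3.16 CPM, and responders stood at 0.266 and 1.15 CPM. NR 12 was close to the other 7 IgG tumors here, which ended at 2.31 CPM, and the ratio of IgG 6 to NR 12 was the largest of the 10 genes, at 55.9.

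Calcium handling was covered by Casq1, the calcium store of the fast sarcoplasmic reticulum, and Pvalb, a cytosolic calcium buffer that speeds relaxation. Casq1 (ENSMUSG00000007122, chr1:172209894-172219868, minus strand) had the fewest counts of the 10 genes in IgG 6, at 39.96 CPM, with an IgG low of 0.152 CPM and median of 0.460 CPM. It ran from 0.153 through 0.645 to 2.05 CPM in the non-responders and was 0.709 and 0.309 CPM in the responders. R 15, among the 3 lowest of the 15 other tumors for 7 of the 10 genes, was not low for Casq1.

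Pvalb (ENSMUSG00000005716, chr15:78191114-78206400, minus strand) was 106 CPM in IgG 6 and ran down to 0 in IgG 1, with an IgG median of 0.395 CPM. Non-responders ran from 0 in NR 14 through 0.513 to 2.81 CPM, and responders stood at 0.0887 and 1.10 CPM. The counts of 0 allow up to 0.114 CPM in IgG 1 and 0.102 CPM in NR 14. Only NR 12 and R 16 lay above the 7 other IgG tumors, which ended at 0.900 CPM.

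Oxygen and energy supply were covered by Mb, the oxygen-binding myoglobin, and Ckm, the creatine kinase that regenerates ATP in muscle. Mb (ENSMUSG00000018893, chr15:77015487-77050670, minus strand) was 74.5 CPM in IgG 6, with an IgG low of 0.0380 CPM and median of 0.360 CPM. It ran from 0.0576 through 1.125 to 4.28 CPM in the non-responders and was 0.266 and 0.366 CPM in the responders. NR 10, NR 12 and NR 13 lay above the other 7 IgG tumors, which ended at 1.35 CPM. Gm49540 lies opposite 27.6% of the exon bases of Mb.

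Ckm (ENSMUSG00000030399, chr7:19404776-19422841, plus strand) was 325 CPM in IgG 6, with an IgG low of 0.0760 CPM and median of 1.32 CPM. Non-responders ran from 0.203 through 1.94 to 8.35 CPM, and responders stood at 0, which allows up to 0.0886 CPM, and 1.69 CPM. NR 12 and NR 10 lay above the 7 other IgG tumors, which ended at 2.59 CPM, and the limit for R 15 reached past the lowest of them. A930016O22Rik lies opposite 15.5% of the exon bases of Ckm.

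Among the 15 tumors other than IgG 6, the same few led or trailed for most of the 10 genes. NR 12 was the highest of them for all 10 genes, NR 10 was among the top 3 for 9 and NR 13 for 6. IgG 1 was among the bottom 3 for 9 genes, and NR 14 and R 15 for 7 each. These ranks are over tumors of all groups and carry no test.

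Levels of different genes were compared per kilobase of exon, in IgG 6, where counts were ample (1541 to 21374 per gene). Acta1 was highest at 217 CPM per kb, then Tnnc2 at 179, Ckm at 112 and Pvalb at 102 CPM per kb. Myh4 followed at 92.1, Tnni2 at 73.3, Actn3 at 61.0, Mb at 49.9, Myh1 at 28.1 and Casq1 at 20.5 CPM per kb. The heavy chains, first by CPM through Myh4, were thus 5th and 9th per length. With the length of the longest transcript in place of all exons, Tnni2 moved from 6th to 3rd, at 122 CPM per kb.

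Fiber types differ in the myosin heavy chain they use, and the 6 skeletal genes counted here are nearly equal in length in their longest transcripts, at 6.02 to 6.23 kb. Over all annotated exons they ran from 6.02 to 11.8 kb (Myh8), and the shares are of counts, not scaled by length. In IgG 6, Myh4 took 67.1% of 31863 myosin heavy chain counts (95% Wilson interval 66.6% to 67.6%), Myh1 21.6%, Myh2 of type IIa fibers 7.33% and Myh7 of slow fibers 3.66%. The developmental chains Myh3 and Myh8 together took 0.311% there (0.255% to 0.378%). In NR 12, Myh4 and Myh1 took like shares of 1066 counts, 41.1% (38.2% to 44.1%) and 41.9% (39.0% to 44.9%). Myh1 led in NR 13, with 50.6% of 666 counts against 18.9% for Myh4, and in NR 10, with 41.8% of 670 counts against 21.8%. In NR 10, developmental chains made up 30.0% (26.7% to 33.6%), and in IgG 5 29.4% of 402 counts (25.1% to 34.0%). IgG 4 held a like share, 25.9% of 224 counts (20.6% to 32.0%). With 40 counts each, IgG 1 stood at 37.5% (24.2% to 53.0%) and NR 14 at 30.0% (18.1% to 45.4%). The share was 4.50% in NR 12 (3.41% to 5.92%) and 11% in NR 13 (8.81% to 13.6%). The Myh4 share of IgG 6 was above those of NR 10, NR 12, NR 13 and IgG 5 beyond counting error. It was not above that of NR 9, where Myh4 took 63.8% of 130 counts (55.3% to 71.6%). Myh4 also took more counts than Myh1 in IgG 2 (55.9%), NR 11 (54.4%), R 16 (52.9%), IgG 3 (48.1%) and IgG 7 (40.8%). The intervals leave out any variation between mice. In 4 tumors, IgG 1, NR 14, R 15 and IgG 3, at most 104 counts gave wide intervals, such as 1.98% to 15.6% for Myh4 in R 15. Stretches of 150 bases, the read length, that also occur in transcripts of other genes made up 5.43% of Myh7, all in Myh6, 2.49% of Myh1, most of them in Myh2, 2.06% of Myh2, 1.60% of Myh8, 0.511% of Myh4 and 0.306% of Myh3. The other 8 fiber genes held none.

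**Figure D3:**
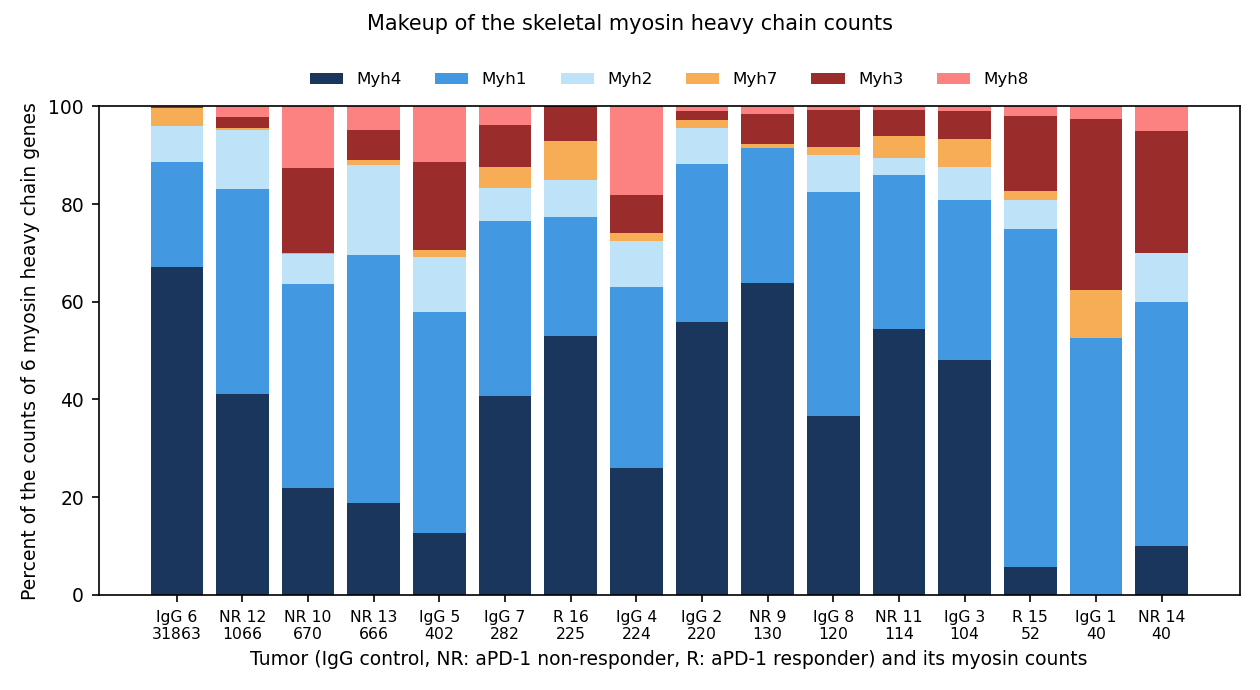
Percent of the counts of 6 myosin heavy chain genes taken by each gene in each tumor, ordered by the number of such counts, which is printed below each bar. Myh4 takes 67.1% in IgG control replicate 6, with 31863 counts. The developmental chains Myh3 and Myh8 together take 30.0% in NR 10, 29.4% in IgG 5 and 25.9% in IgG 4. They take 37.5% in IgG 1 and 30.0% in NR 14, with 40 counts each.

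The rest of the muscle program was read from 89 further genes in 10 role lists, of which 71 passed the filter on low counts. The lists are general knowledge of the tissue and were drawn up with earlier results of these tumors known. Of the 89 genes, 80 were highest in IgG 6 and 46 were over 10-fold above the next tumor. Both counts include genes that did not pass the filter. Over all 18251 genes tested, 892 (4.89%) were highest in IgG 6 and 74 (0.405%) were over 10-fold above every other tumor. The 10 fiber genes, chosen for such levels, are among the 74, and so are 39 of the 46 list genes. The rest of the 46 did not pass the filter. Outside IgG 6, at most 15 genes met the second mark in any tumor (IgG 3).

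The structural lists had the largest gaps. The thick filament and M band list summed to 519 CPM in IgG 6 and to 32.6 CPM in the next tumor, NR 12, with Mybpc2, the fast myosin-binding protein C, at 158 CPM and Mylpf, the fast regulatory light chain, at 127 CPM. The thin filament list summed to 548 and 26.6 CPM, led by the fast troponin Tnnt3 at 330 CPM and nebulin (Neb), the thin filament ruler, at 136 CPM. In this list the cardiac actin Actc1 was the exception, at 0.389 CPM in IgG 6 and highest in R 15. The titin and Z disc list summed to 652 and 36.6 CPM, led by titin (Ttn) at 306 CPM. NR 12 was second for all 3 lists.

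Calcium and energy lists showed large gaps in some genes and small ones in others. The calcium pump Atp2a1 was 335 CPM in IgG 6 and 4.48 CPM in NR 12, and the release channel Ryr1 was 47.3 CPM in IgG 6 and 1.79 CPM in NR 10. The glycogen phosphorylase of muscle, Pygm, was 59.9 CPM in IgG 6 and 2.01 CPM in R 15. By contrast the enolase Eno3 was 106 CPM in IgG 6 but 15.7 to 32.2 CPM in every other tumor, and Cox6a2, a respiratory chain subunit, was alike in IgG 6 and IgG 1 (both 19.7 CPM).

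Slow fiber genes were also highest in IgG 6, all 10 of 10, with a sum of 174 CPM against 9.14 CPM in NR 12. Mybpc1 gave 79.7 CPM of that sum in IgG 6. In NR 12, Csrp3 (2.91 CPM) and Mybpc1 (2.86 CPM) were the largest parts. The slow myosin Myh7 was 30.2 CPM in IgG 6 and at most 0.506 CPM elsewhere, in R 16. In NR 12 it had 3 counts (0.0759 CPM), so the rank of NR 12 for the list does not hold for Myh7. The developmental myosins went another way, since NR 10 was highest at 6.11 CPM, IgG 5 followed at 3.38 CPM and then IgG 6 at 2.57 CPM. The neuromuscular junction list, led by the receptor subunit Chrna1, hardly differed, with 15.9 CPM in IgG 6, 14.2 CPM in NR 14 and a median of 11.5 CPM over the 15 others.

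Among the transcription factors, Myf6, which is kept in mature fibers, was 7.31 CPM in IgG 6 and at most 0.304 CPM elsewhere. Myog was 1.37 CPM, Myod1 0.519 CPM and the satellite cell factor Pax7 had no count in IgG 6. Among genes of protein turnover, the ubiquitin ligase Trim63 was 18.3 CPM in IgG 6 and at most 0.759 CPM elsewhere, whereas Fbxo32 stood between 10.1 and 22.0 CPM in all 16 tumors.

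Markers of 11 other cell types were measured in the same tumors, and their part in the muscle levels was not tested. IgG 6 ranked 12th of 16 for the smooth muscle list, at 86.1 CPM within a range of 79.4 to 209 CPM, and 16th for the cardiac list, at 5.11 CPM within 5.11 to 34.96 CPM, with Nppa and Ryr2 at 0. It ranked 7th for fat cells at 33.4 CPM, 13th for keratinocytes at 5.29 CPM and 5th for Schwann cells at 23.1 CPM. Of the 11, only the tendon list was highest there, at 44.2 CPM with 2 of its 6 genes highest, with NR 13 next at 31.6 CPM and then NR 12 at 27.1 CPM. The tendon signal was led by Thbs4 (28.5 CPM in IgG 6, 14.9 in NR 13), and the tendon factor Scx was 2.05 CPM in IgG 6 and at most 0.774 CPM elsewhere. The other tendon genes were not highest in IgG 6. Mkx was 11.9 CPM there, against a median of 12.3 CPM over the 16 tumors. Fmod, Comp and Tnmd stood at 0.882, 0.804 and 0.104 CPM in IgG 6 and were highest in R 15, at 6.15, 7.57 and 0.118 CPM. NR 12, the second tumor for the fiber genes, was the highest of 16 for the keratinocyte list, at 53.8 CPM, of which 36.5 CPM was Krt14 of the basal layer of skin. IgG 5 and IgG 7 followed for that list with 38.0 and 32.6 CPM, while NR 10 and NR 13 stood at 4.34 and 11.3 CPM.

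**Figure D4:**
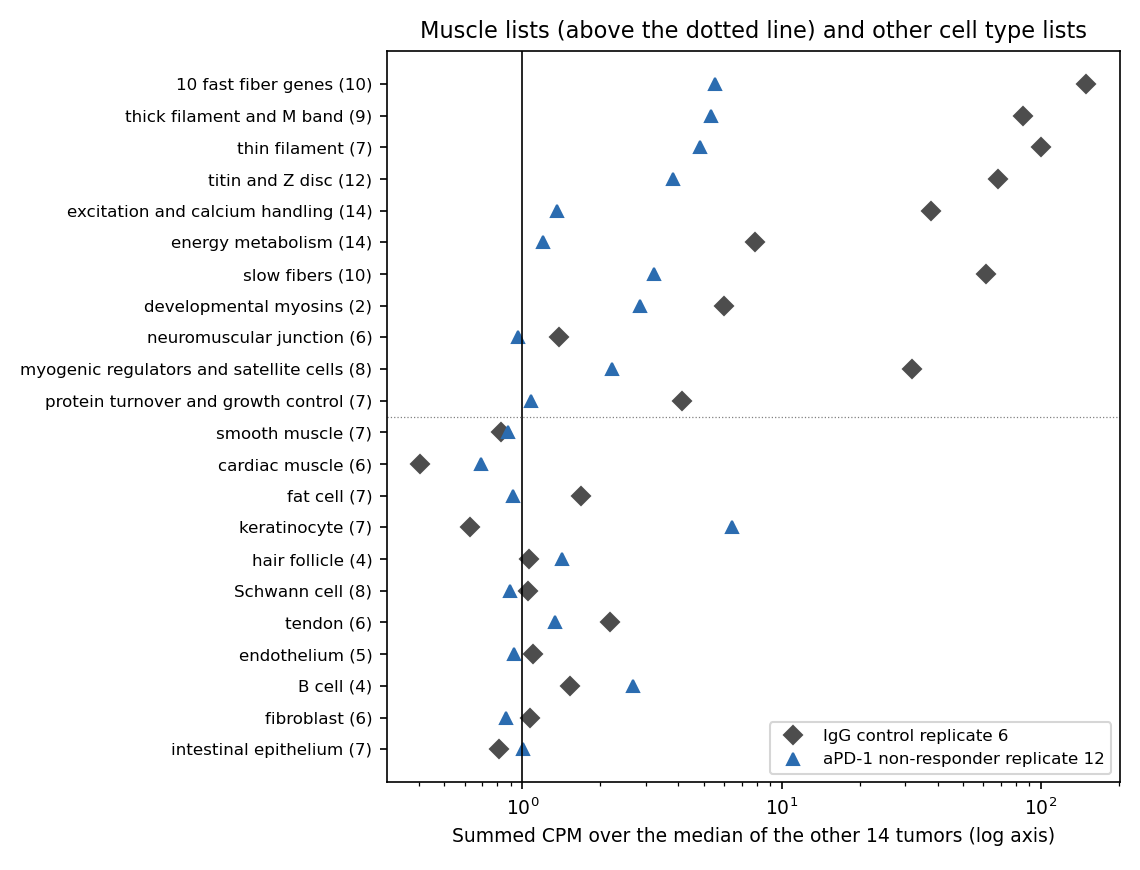
Summed CPM of each gene list in IgG control replicate 6 (diamonds) and aPD-1 non-responder replicate 12 (triangles) over the median of the other 14 tumors, on a log axis, with the number of genes in parentheses and a line at 1. In IgG 6 the 10 fiber genes stand 149.7 times and the thin filament list 99.8 times above that median, and the 11 lists of other cell types between 0.404 and 2.18 times. NR 12 is 5.54 times above it for the fiber genes and 6.41 times for the keratinocyte list.

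The 20 genes outside the 10 whose levels followed them most closely were ranked by the Pearson correlation of log2 CPM (prior count 2) with the mean log2 CPM of the 10 genes over 16 tumors. Their r ran from 0.937 to 0.989, led by Tnnt3 (0.989), Trdn of the calcium release complex (0.984), Atp2a1 and the titin cap Tcap (0.976 each). Of the 20, 19 were in the muscle lists, and Cavin4, a caveolar coat protein of muscle, was not. The 16 points share 1 far tumor. Without IgG 6, 18 of the 20 genes were again among the top 20, with r from 0.854 to 0.969 over the other 15 tumors. By Spearman correlation over the 16 tumors, 15 of the 20 were again among the top 20, and 15 of that top 20 were in the muscle lists.

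The comparison of non-responders with IgG controls asks which genes differ under the antibody when no CD8 response was seen. No gene was called among the 18251 tested (0%, edgeR quasi-likelihood test, Benjamini-Hochberg adjusted p under 0.05 and log2 fold change over 1 in size), with 694 genes (3.80%) at an unadjusted p under 0.05 and 4 genes called by DESeq2. For all 10 fiber genes the fitted level was lower in the non-responders, by 1.75 (Tnni2) to 4.18 (Myh4) on the log2 scale, with a median of -2.80 against -0.01 over all genes. None was called (edgeR adjusted p = 0.987 for each), and the standard errors ran up to 1.79 for Myh4. Without IgG 6, all 10 values turned positive, from 0.34 ± 0.63 (SE) for Actn3 to 1.77 ± 0.81 for Mb, with a median of 1.09 and again none called (edgeR adjusted p = 1 for each). Without IgG 6 and NR 12, 9 stayed positive with a median of 0.49. The direction of this comparison was therefore set by 1 control tumor, and no difference between the groups was detectable in either direction.

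DESeq2 gave the positive direction with all 16 tumors in the fit, with a median of 1.05. By its construction it replaces a count that lies far from the others in a group of 7 or more. It replaced the IgG 6 count in all 10 genes (378 of 18251 genes had any replacement). DESeq2 gave no p for 4 of them, Myh4, Tnnc2, Pvalb and Ckm, while the rest, with the same replacement, had one. With outlying counts kept, an alternative added after the data were seen, its median was -2.81 and none of the 10 was called, with 7 genes called in all (0.0384%).

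The comparison of responders with IgG controls, which uses the same control tumors, called 2730 genes (15%), of which 117 were lower in responders (0.641% of those tested), and none of the 10. Their fitted values were all negative, from -2.00 ± 1.51 (Tnni2) to -5.61 ± 3.25 (Ckm), with a median of -4.96 against -0.02 over all genes and edgeR adjusted p from 0.232 to 0.393. Without IgG 6, 7 were negative and 3 positive (Tnni2 at 0.35, Pvalb at 0.54 and Casq1 at 0.21), with a median of -0.56, edgeR adjusted p from 0.519 to 0.966 and 15.1% of genes called. DESeq2 with outlying counts kept was the only fit that called any of the 10. It placed 5 lower in responders, Acta1 (DESeq2 adjusted p = 0.0284), Actn3 (0.0286), Ckm (0.0416), Tnnc2 (0.0435) and Myh1 (0.048). In that fit 14.8% of genes were called, and 168 of the 18251 tested were called lower in responders. With the IgG 6 counts replaced, DESeq2 called none of the 6 genes it gave a p, and Tnnc2 and Ckm were among the 4 without one.

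The comparison of responders with non-responders, which shares tumors with each of the other comparisons, called 2407 genes (13.2%), 121 of them lower in responders (0.663%), and none of the 10. All 10 values were negative, from -0.25 ± 1.39 (Tnni2) to -2.61 ± 2.70 (Acta1), with a median of -1.41 against 0.02 over all genes and edgeR adjusted p from 0.576 to 0.934. IgG 6 is in neither group but sets the spread of the shared fit. Without it the values stayed in place (Actn3 moved from -1.15 to -1.14), the median standard error fell from 2.59 to 1.27, and none was called (edgeR adjusted p from 0.208 to 0.861). The median was -0.82 without NR 12 and -2.94 without R 16, a fit in which Ckm stood at 0 counts in the 1 responder left, so that its fitted value is no bound. Pvalb turned to 0.55 without NR 12 and 0.35 without R 15, and Tnni2 to 0.09 without R 15.

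**Figure D5:**
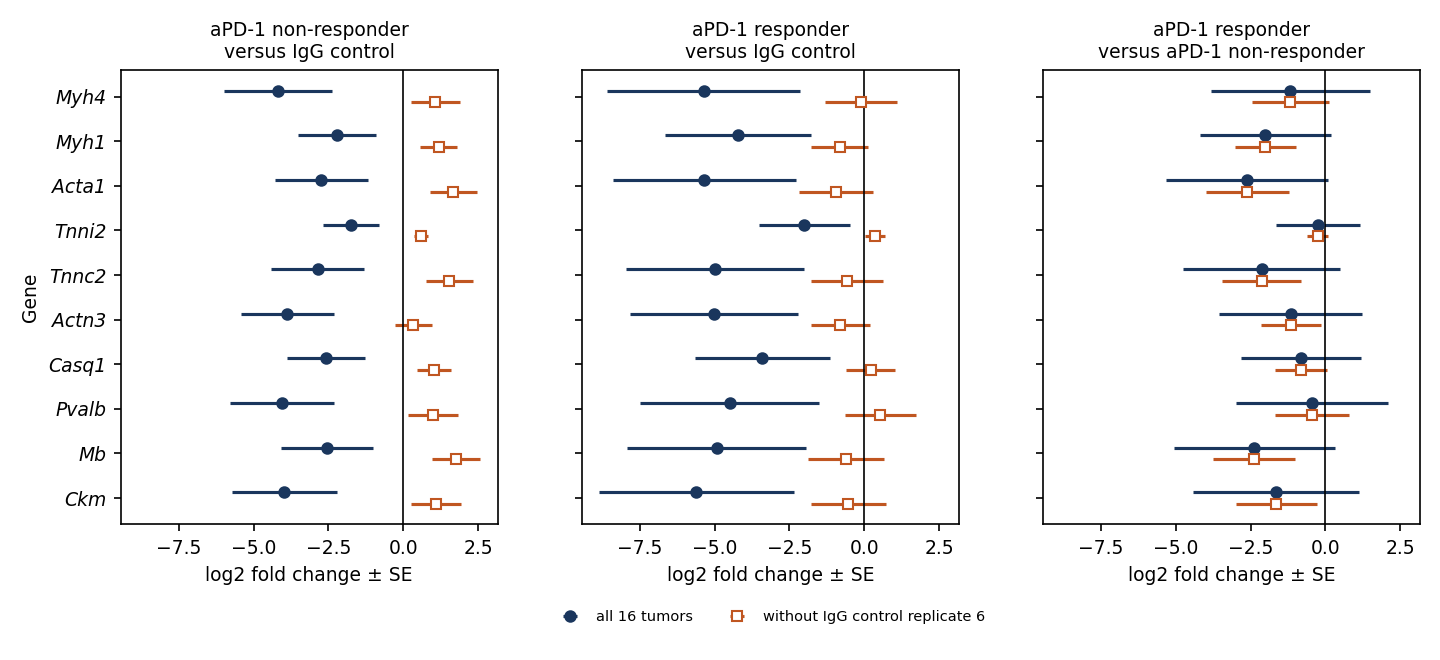
Log2 fold change with its standard error for the 10 genes in 3 comparisons, from edgeR fits to all 16 tumors (filled circles) and without IgG control replicate 6 (open squares). In the comparison of non-responders with IgG controls all 10 values change from negative to positive when that tumor is left out, and in the comparison of the treated classes they keep their place while the bars shorten.

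Among the 71 other muscle genes tested, none was called in the comparison of non-responders with IgG controls, where the edgeR count over all genes is 0%. Their median was -1.97, and 0.66 without IgG 6. A total of 3 were called between responders and non-responders (13.2% of all genes), with a median of -0.57 over the 71 genes. Scn4a, the sodium channel of muscle, was higher in responders by 6.05 ± 1.64 (edgeR adjusted p = 0.0148), at 7.95 and 1.97 CPM in R 15 and R 16 and at most 0.152 CPM in every other tumor but IgG 6 (4.82 CPM). Phkg1, the muscle subunit of phosphorylase kinase, was higher by 3.44 ± 1.18 (edgeR adjusted p = 0.0497), at 6.65 and 1.43 CPM. Cox6a2 was lower by 1.41 ± 0.41 on the log2 scale (edgeR adjusted p = 0.0204), at 3.37 and 6.78 CPM. R 15, which carries most of the first pair, is also the tumor with 2017 CPM of fat cell genes and 749 CPM of B cell genes. A fit without it leaves 1 responder, so it cannot show whether the calls rest on R 15.

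Against IgG controls, Cox6a2 was again lower in responders, by 1.24 ± 0.39 on the log2 scale (edgeR adjusted p = 0.0304), and was the single muscle gene called (15% of all genes). Without IgG 6, 6 of 67 muscle genes were called, where 15.1% of all genes were, with Myom1 (1.01), Cacna1s (3.09), Scn4a (6.46), Phkg1 (3.24) and Cox8b (4.23) higher on the log2 scale and Cox6a2 (-1.10) lower. None of the 10 fiber genes was called in that fit, and the difference between them and these genes was not tested.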

How the data were processed

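Bulk poly(A) RNA from 16 MC38 tumors was measured with strand-specific, paired reads. The deposited values are expected counts per gene, made by the authors with STAR 2.6 and RSEM 1.3.0 on GRCm38 with Ensembl 91 annotation, so reads that match several genes were shared out by estimate, and 7.839% of the values were not whole. The strand setting of the counting is not given in the sources used here. The table had 53557 entries, of which 92 were spike-in sequences (at most 185 counts per tumor) and were left out. No pair of tumors agreed within sampling noise (chi-square per degree of freedom of at least 16.5 over 120 pairs).

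Counts were rounded and filtered with filterByExpr, which left 18251 genes, and were scaled by TMM. One edgeR (4.0.16, R 4.3.3) quasi-likelihood fit of the 3 groups gave the contrasts, with Benjamini-Hochberg adjustment over all genes tested. Calls needed a log2 fold change over 1 in size besides an adjusted p under 0.05. Groups came from the labels of each tumor. DESeq2 1.42.0, other scaling, other filters, fits of the groups compared alone and leaving out each tumor were the alternatives. DESeq2 with outlying counts kept, and leaving out IgG 6 and NR 12 together, were added after the data were seen. Levels are CPM, with exact Poisson intervals for sums and Wilson intervals for shares, both at 95% and for counting error only. A count of 0 was given an upper limit of 3 counts. Lengths and overlaps came from GENCODE M21 on GRCm38 and promoters from RefSeq. The scripts were tested on simulated data.

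The named genes were the 10 fiber genes, genes of the muscle role and cell type lists, the 20 genes with the highest correlation with the 10, and Cd8a. The genes and lists were chosen with earlier results of these data known.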

Additional observations from a re-analysis of the deposited data

Results flagged for a closer look

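Of 46 values looked at, each the set of levels of 1 gene or list in the IgG or the non-responder group, 22 held a tumor far from the rest of its group by Dixon's gap over range. The 10 fiber genes were chosen for such tumors, so their entries and that of their sum are a description. Without them, 8 of 24 values held such a tumor. The rate of about 1 in 20 that goes with the rule holds for normally distributed values. These are CPM sums of lists chosen with earlier results known, and the 8 include the sum of the other muscle genes. The count is therefore a description too, and cannot be set against that rate.

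IgG 6 stood apart from the other 7 IgG tumors in all 10 genes, with Myh4 at 554 CPM, Myh1 at 179, Acta1 at 334, Tnni2 at 109.7, Tnnc2 at 143, Actn3 at 177, Casq1 at 39.96, Pvalb at 106, Mb at 74.5 and Ckm at 325 CPM. The gap took at least 0.975 of the range of the group in each. It also stood apart in the sum of the 10 genes (2042 CPM, next 23.1), in the sum of the 89 other muscle genes (2797 CPM, next 130.0) and in the tendon list (44.2 CPM, next 25.2).

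NR 12 stood apart from the other 5 non-responders in 3 fiber genes, Tnnc2 at 7.90 CPM, Pvalb at 2.81 CPM and Ckm at 8.35 CPM, and in the keratinocyte list at 53.8 CPM (next 11.3).

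Other tumors stood apart in lists of other cell types. IgG 1 was at 34.96 CPM for the cardiac list, IgG 3 at 0.636 CPM for the hair follicle list and IgG 4 at 3.90 CPM for the B cell list. For the Schwann cell list, IgG 2 was at 32.7 CPM and NR 11 at 35.02 CPM. None of these tumors was above 17 CPM for the 10 fiber genes.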

How the results depend on the processing

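Of 928 values recomputed for 52 results, 838 were classed as unchanged. For the fold change of a gene, this meant the same direction and side of the threshold. For the other results, it meant an unchanged rank or a value within a margin set for that kind of result. Leaving out IgG 6, NR 12, R 15 or R 16, using DESeq2, changing the filter or fitting 2 groups alone changed values as given below. The ranks of 6 genes in level per length moved with the transcript length used.

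For non-responders against IgG controls, the median log2 fold change of the 10 genes was 1.05 with DESeq2, which replaced the IgG 6 counts, and ran from -3.45 to 1.09 when single tumors were left out. With DESeq2 the genes were at 0.56 (Tnni2), 1.14 (Myh1), 1.02 (Myh4), 1.50 (Tnnc2), 0.97 (Pvalb), 0.33 (Actn3), 0.99 (Casq1), 1.72 (Mb), 1.07 (Ckm) and 1.62 (Acta1). With single tumors left out, Tnni2 ran from -1.95 to 0.60, Myh1 from -2.60 to 1.18, Myh4 from -4.86 to 1.07, Tnnc2 from -3.65 to 1.54, Pvalb from -5.06 to 0.99, Actn3 from -4.20 to 0.34, Casq1 from -3.02 to 1.03, Mb from -3.10 to 1.77, Ckm from -4.80 to 1.10 and Acta1 from -3.25 to 1.67. The upper ends are all without IgG 6.

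For responders against IgG controls, the median was -0.61 with DESeq2 and -6.58 to -0.56 with tumors left out. DESeq2 turned Tnni2 (0.30), Pvalb (0.51) and Casq1 (0.19) positive, and leaving tumors out gave -2.64 to 0.35 for Tnni2, -7.26 to 0.54 for Pvalb and -4.19 to 0.22 for Casq1. DESeq2 with outlying counts kept called 5 of the 10 genes and 9 of 71 other muscle genes, all lower in responders. Over all genes, 168 of 18251 were called lower there. For the other muscle genes, DESeq2 called 6 of 71 (2717 of 18251 over all genes) and the fit of the 2 groups alone 0 of 64 (2630 of 17832). Fits without 1 tumor that kept both responders called 1 to 6, the latter of 67 without IgG 6 (2748 of 18204 over all genes).

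For responders against non-responders, the median of the 10 ran from -2.94 to -0.82 (without R 16 and NR 12), Tnni2 ran from -0.88 to 0.09 and Pvalb from -3.21 to 0.55 with tumors left out. Among the other muscle genes, DESeq2 called 6 of 71 (2417 of 18251 over all genes). The filter of at least 10 counts in at least 8 tumors gave 1 of 45 (1618 of 15901), and the 2 groups alone 5 of 66 (2287 of 17651). Fits without 1 tumor that kept both responders gave 2 to 5, the latter of 67 without IgG 6 (2426 of 18204 over all genes).

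The summed level of IgG 6 over the median tumor was 131 with total counts, 134 with median-of-ratios scaling, and, for the highest tumor that remained, 5.52 to 149 with single tumors left out, the lowest without IgG 6. Depth limits the lowest tumors, where single genes rest on 0 to 3 counts, and 2 responders give an uncertain spread. No paired analysis was possible because each tumor came from another mouse.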

Other observations

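Of the 74 genes over 10-fold above every other tumor in IgG 6, 25 were neither among the 10 fiber genes nor in the muscle lists. They are named here because of these values. Ankrd23, a titin-binding ankyrin repeat protein, stood at 219 CPM in IgG 6 and at most 14.4 CPM elsewhere. Cmya5, a large protein of the Z disc region, was at 76.3 and at most 2.99 CPM, and Igfn1, an immunoglobulin-domain protein of the sarcomere, at 57.9 and at most 0.506 CPM. Pdlim3 of the Z disc stood at 26.8 and at most 2.20 CPM. Lower in level were Ano5 (14.8 CPM in IgG 6), Apobec2 (14.1 CPM), the muscle methyltransferase Smyd1 (13.8 CPM), the elongation factor of muscle and nerve Eef1a2 (10.53 CPM) and the muscle ribosomal protein Rpl3l (6.98 CPM). In the other tumors, the number of genes over 10-fold above every other tumor was 15 in IgG 3, 13 in R 15 and at most 3 in each of the rest.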
